A study of Schizosaccharomyces pombe with 8 samples.

Results

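The 53 coding genes described here lie around the mating-type region of the fission yeast Schizosaccharomyces pombe. They are the coding features of the deposited table that start within 1 window of 110 kb on chromosome II, out of 5137 coding features in all. The rule is one of position, set with SPBC23G7.10c, which lies inside the window, already in view. The first begins at 2070147 and the last ends at 2180791 on build ASM294v2. RNA was sequenced from 8 libraries in 4 groups of 2: a strain labelled wild type and strains labelled nht1-delta, iec1-delta and iec5-delta, each labelled as a deletion of a gene of INO80, which repositions nucleosomes on DNA. All cells grew in YEA, a rich yeast extract medium, to mid-log phase, ribosomal RNA was removed, and directional libraries were prepared. Each group carries the strain number of a single strain. The wild-type number begins with SPJ and the others with CS, and the labels do not say whether their backgrounds match. A difference from wild type shared by the other groups therefore cannot be told apart from one of background. Nor do the labels say whether the replicates were separate cultures, so p-values measure the spread between these libraries, which may be technical. Coding totals ran from 2208165 to 3426063 counts per library.

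Fission yeast cells are of mating type P or M, set by the cassette at mat1, the expressed copy. The copies mat2 and mat3 are kept silent by heterochromatin, marked by methylation of histone H3 on lysine 9 and bound by the HP1 protein Swi6, and serve as donors when mat1 switches. The reference strain is of type M: in the annotation used, mat1 and mat3 of chromosome II each hold an M cassette, with the genes Mi and Mc, of which Mc is an HMG-box transcription factor that turns on M-specific genes. The other members are ordinary genes on either side, and the series title places the study in the inheritance of heterochromatin.

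The targeted genes were examined as a check of the labels. Reads of iec5 were lower in the iec5 libraries, at 2.38 ± 1.30 CPM (TMM-normalised counts scaled to the library size) against 12.6 ± 0.325 in wild type (SD, n = 2 each). Reads of nht1 averaged 45.1 ± 4.98 CPM in wild type against 29.9 ± 7.12 in the pair labelled nht1 (SD, n = 2 each; edgeR adjusted p = 0.212). Reads of iec1 went against the label: 91.9 ± 4.93 CPM in the libraries labelled iec1 and 38.4 ± 2.89 in wild type (SD, n = 2 each; edgeR adjusted p = 0.000741). Directions are therefore those of the libraries labelled iec1 and nht1. The extent of each deletion is not stated, so reads from a remaining part of a gene are not told apart.

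The 4 mating-type genes were listed at 0 in each of the 8 libraries. They are mat1-Mi (SPBC23G7.17c, 2114219 to 2114347, minus strand), mat1-Mc (SPBC23G7.09, 2114449 to 2115027, plus strand), mat3-Mi (SPBC1711.01c, 2132586 to 2132714, minus strand) and mat3-Mc (SPBC1711.02, 2132849 to 2133394, plus strand). In the RefSeq sequence of chromosome II (build ASM294v3) the Mi genes of mat1 and mat3 are identical over 129 of 129 bases, and the Mc genes over 546 of 546. The counted mat1-Mc feature is longer, at 579 bases, and its further bases were not compared. The Mi sequence is shown because a read from it cannot be placed at 1 of its copies; it is written 5′ to 3′ in the direction of the gene, with no part marked.
mat1-Mi and mat3-Mi: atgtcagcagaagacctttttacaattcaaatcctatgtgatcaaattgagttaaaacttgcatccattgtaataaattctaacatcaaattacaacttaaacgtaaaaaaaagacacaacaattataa
How the authors' counting treated reads with several matches is not stated, so the 0 of these genes is not read as absence of expression, and whether mat3 was silent cannot be read from the table. A count of 0 allows up to 3 counts in a library, or 0.875 to 1.38 CPM, for counting error only.

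Other features near mat3 were at 0 as well. Of 5 features that lie wholly in the 9750 bases between rpp202 and emc3 on either side of mat3, all 5 were at 0 in the 8 libraries, 2 of them coding (mat3-Mi and mat3-Mc) and 3 noncoding. Whether the strains carry that interval, or whether reads from it had several matches, was not tested. The counts also cover a separate sequence named for the mating-type region, given under Other observations. Beyond the mating-type genes, 2 more members were at 0 in each library. These are SPBC18E5.10, annotated as an iron-sulfur cluster assembly protein, and rec15, for a meiotic recombination protein. Each lies wholly inside a coding feature of the opposite strand, SPBC18E5.11c (edc3) and SPBC1711.15c. Over the whole coding table, 219 of 219 features that lie wholly inside another were at 0 in all libraries, with 210 of them on the opposite strand. Edc3, an enhancer of mRNA decapping, shares 92.3% of its length with SPBC18E5.10 and had 4 to 6 counts per library. These 7 members fell below the low-count filter, and 46 of 53 were tested.

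Counts of features on opposite strands also ran together. Noncoding SPNCRNA.1488 lies inside the urea transporter gene SPBC23G7.13c on the opposite strand, and their counts differed by at most 5 in 8 of 8 libraries. Across the table, of 20 noncoding features that lie wholly within a single coding gene of the opposite strand and cover over 80% of it, 19 had at least 80% of that gene's count. Reads of a member and of an antisense RNA are therefore not told apart here, and 20 of the 53 members also overlap another coding feature.

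In wild type the 46 tested members spanned a wide range of levels. Per kb of length not shared with another coding feature, the highest was rps21, for a protein of the small ribosomal subunit, at 6270 CPM per kb. It was followed by rpp202, for the ribosomal stalk protein P2, at 3417, and by rpl1001, for a protein of the large subunit, at 1028 CPM per kb. The lysyl-tRNA synthetase gene krs1 (522.5 CPM per kb), the histidine synthesis gene his2 (517) and srp40, for a transport chaperone (428 CPM per kb), came next. Among the lowest was rga7 at 3.66 CPM per kb, next to mat1 on its left. Then came the DNA glycosylase gene mag2 at 4.26 and the urea transporter gene SPBC23G7.13c at 5.29 CPM per kb, both between mat1 and mat3, and nvj2 at 5.47 CPM per kb, left of mat1. Rga7 overlaps mag2 in the 2 wild-type libraries, and mag2 overlaps SPBC23G7.13c and nvj2, so no order among these 4 is read. The median member stood at 53.5 CPM per kb, and SPBC23G7.10c at 11.4 CPM per kb.

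**Figure D1:**
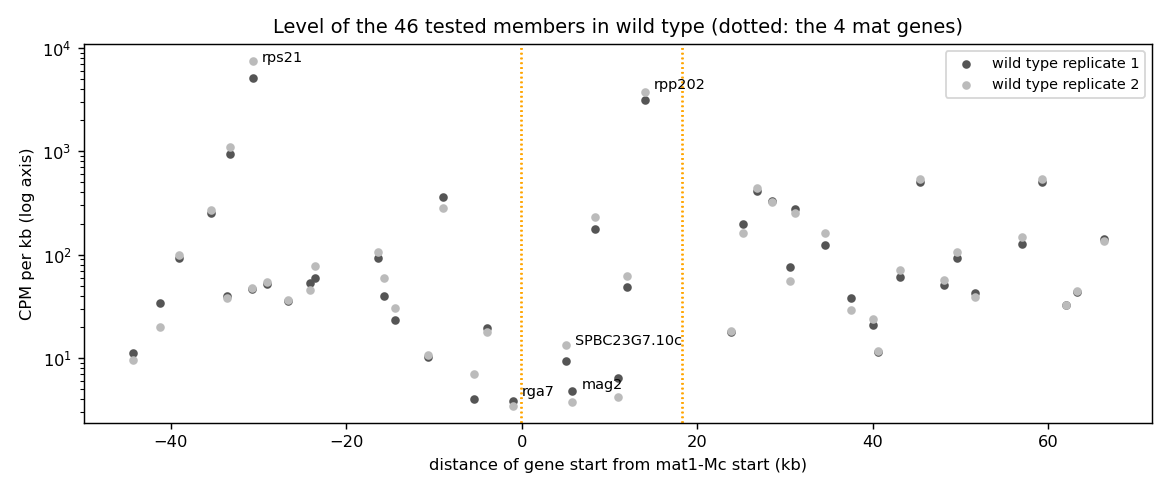
Level of the 46 tested members in the 2 wild-type libraries, in normalised CPM per kb of unshared length on a log axis, against the distance of each gene's start from that of mat1-Mc in kb. Dotted lines mark the 4 mating-type genes, which are not plotted since they are listed at 0. Near mat1, rga7, mag2 and SPBC23G7.10c are low, while sui1 and rpt6 are at 319.5 and 203.9 CPM per kb. Rpp202 between mat1 and mat3 is at 3417 CPM per kb, and gef3 at the far left is at 10.4 CPM per kb.

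Across the 4 groups most members varied little. For 38 of 46 the highest group mean was under 1.5 times the lowest, and the median of that ratio was 1.21. The cyclophilin gene rct1 (1.06), the Elongator gene elp5 (1.08) and the copper transporter gene ctr6 (1.09) had the smallest ratios. At the other end stood SPBC23G7.10c with 22.4, followed by mag2, whose 2 to 15 counts per library make its ratio of 2.15 uncertain, and by atg2402 with 1.96.

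SPBC23G7.10c is annotated as a flavin oxidoreductase that uses NADH. It lies at 2118146 to 2119536 on the minus strand, 3118 bases to the right of mat1-Mc, and overlaps no other coding feature. Its level was 13.0 and 18.6 CPM in the wild-type libraries. In the nht1 libraries it was 28.6 and 37.8, and in the libraries labelled iec1 53.2 and 74.9 CPM. In the iec5 libraries it was 1.65 and 4.08 CPM, from 5 and 14 counts. The libraries of the 4 groups did not overlap: iec5 was lowest, then wild type, then nht1, and those labelled iec1 were highest. In a bulk culture, a lower level in every cell and the same level in fewer cells cannot be told apart.

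Against wild type, SPBC23G7.10c rose in the libraries labelled iec1 by 2.03 on the log2 scale (SE 0.29; adjusted p = 0.000198 by Benjamini-Hochberg, from the quasi-likelihood test of edgeR), a 4.07-fold difference. It fell in the iec5 libraries, with a log2 fold change of -2.42 (SE 0.42, edgeR adjusted p = 0.0101). In the nht1 libraries it stood 1.07 above wild type (SE 0.30), which did not pass (edgeR adjusted p = 0.0566). Without wild type in the comparison, the libraries labelled iec1 were above those of iec5 by 4.44 (SE 0.37, edgeR adjusted p = 1.47e-06), rank 3 by size among 4652 coding genes. Those of iec5 stood at -3.48 against nht1 (SE 0.39, edgeR adjusted p = 0.00038), rank 1 by p among 4652. Both values rest on the 5 and 14 counts of iec5: without iec5 replicate 2 they were 5.26 and -4.30, and without iec5 replicate 1 3.97 and -3.01. The libraries labelled iec1 were 0.96 above nht1 (SE 0.27), which did not pass (edgeR adjusted p = 0.294). The iec5 call against wild type ended without wild-type replicate 1 (adjusted p = 0.0615), wild-type replicate 2 (0.182) or iec5 replicate 1 (0.137), with log2 fold changes from -3.23 (without iec5 replicate 2) to -1.94 (without iec5 replicate 1) over the alternatives. The nht1 difference passed with DESeq2 (adjusted p = 0.0464), when only these 2 groups were fitted (0.0317) and with a replicate block (0.00978). It also passed without any 1 of the libraries labelled iec1 or iec5. It did not pass with RLE normalization (0.05735), with no low-count filter (0.05235) or without any 1 library of wild type or nht1. Without 1 of those libraries its log2 fold change ran from 0.83 to 1.35.

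The 250 bases before the RefSeq start of SPBC23G7.10c are shown because this member changed most, and they were searched with those of the other members for 4 short motifs on both strands. They run 5′ to 3′ toward the gene (RefSeq, build ASM294v3, minus strand of chromosome II), and capitals mark a match to TTCTTTGT, the core of the box bound by Ste11, an HMG-box factor that drives mating genes.
SPBC23G7.10c: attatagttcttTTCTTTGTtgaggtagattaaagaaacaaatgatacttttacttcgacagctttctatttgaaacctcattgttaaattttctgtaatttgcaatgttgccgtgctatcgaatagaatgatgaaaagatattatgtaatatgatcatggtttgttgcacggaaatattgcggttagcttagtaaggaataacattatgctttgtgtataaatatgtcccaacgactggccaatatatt
The match begins 238 bases before the start. TTCTTTGT was present in 3.03% of 5110 such windows and in those of 5 of 53 members: SPBC23G7.10c and the 4 mating-type genes, whose windows repeat since mat1 and mat3 are copies. Mi and Mc are also a divergent pair whose windows overlap within each cassette, so their matches need not be separate sites. TGACGT, the core bound by the stress factor Atf1, was in 5.52% of all windows and in 2 members, SPBC23G7.14 and pwp1. GTAAACA, a forkhead site, was in 14.8% of all windows and in 7 members. CAGTCACA, the HomolD box of ribosomal protein genes, was in 2.62% of all windows and in 5 members: rps21, rpl1001, rpl401, elp5 and sib3; the windows of elp5 and rps21, a divergent pair, overlap. A match is a run of letters and does not show a bound site.

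Noncoding RNA SPNCRNA.1487 lies next to SPBC23G7.10c on the same strand (2120212 to 2121384), and its nearer end is 675 bases upstream of that gene's start. Its level was 148 and 82.2 CPM in wild type, 77.1 and 91.3 in the nht1 libraries, 212 and 176 in those labelled iec1, and 28.0 and 45.8 CPM in the iec5 libraries. The iec5 libraries lay below and those labelled iec1 above all others, while nht1 and wild type overlapped. SPNCRNA.1487 rose by 0.75 in the libraries labelled iec1 (SE 0.21, edgeR adjusted p = 0.0149) and was at -1.63 in the iec5 libraries (SE 0.23, edgeR adjusted p = 0.00012). In the nht1 libraries it stood at -0.45 (SE 0.22, edgeR adjusted p = 0.261), where SPBC23G7.10c was at 1.07. In direct comparison, the libraries labelled iec1 were 2.38 above iec5 (SE 0.23, edgeR adjusted p = 6.6e-08) and 1.20 above nht1 (SE 0.22, edgeR adjusted p = 0.00233). The iec1 call ended without wild-type replicate 2 (adjusted p = 0.278) or iec1 replicate 1 (0.129), and the iec5 call was kept in all 14 alternatives run.

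The coding genes within and beyond SPNCRNA.1487, mag2 and rpt6, did not pass. The DNA glycosylase gene mag2 lies inside it on the opposite strand and takes 69.9% of its length, which leaves 353 bases outside. It had 62 counts over the 8 libraries, against 2558 for SPNCRNA.1487. If strands ran together here as in the pairs above, most reads of SPNCRNA.1487 lay in the bases outside mag2. Where along SPNCRNA.1487 they lay was not tested. On the other side of SPNCRNA.1487, 59 bases away, lies rpt6, for an ATPase of the proteasome. It is on the same strand as SPNCRNA.1487, with its 3′ end the nearer. Rpt6 had 244 and 317 CPM in wild type and 268 and 295 in nht1. In the libraries labelled iec1 it had 312 and 362 CPM, and in iec5 250 and 270. Its differences from wild type were 0.01, 0.27 and -0.11 on the log2 scale, and none passed (edgeR adjusted p = 0.986, 0.285 and 0.993).

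**Figure D2:**
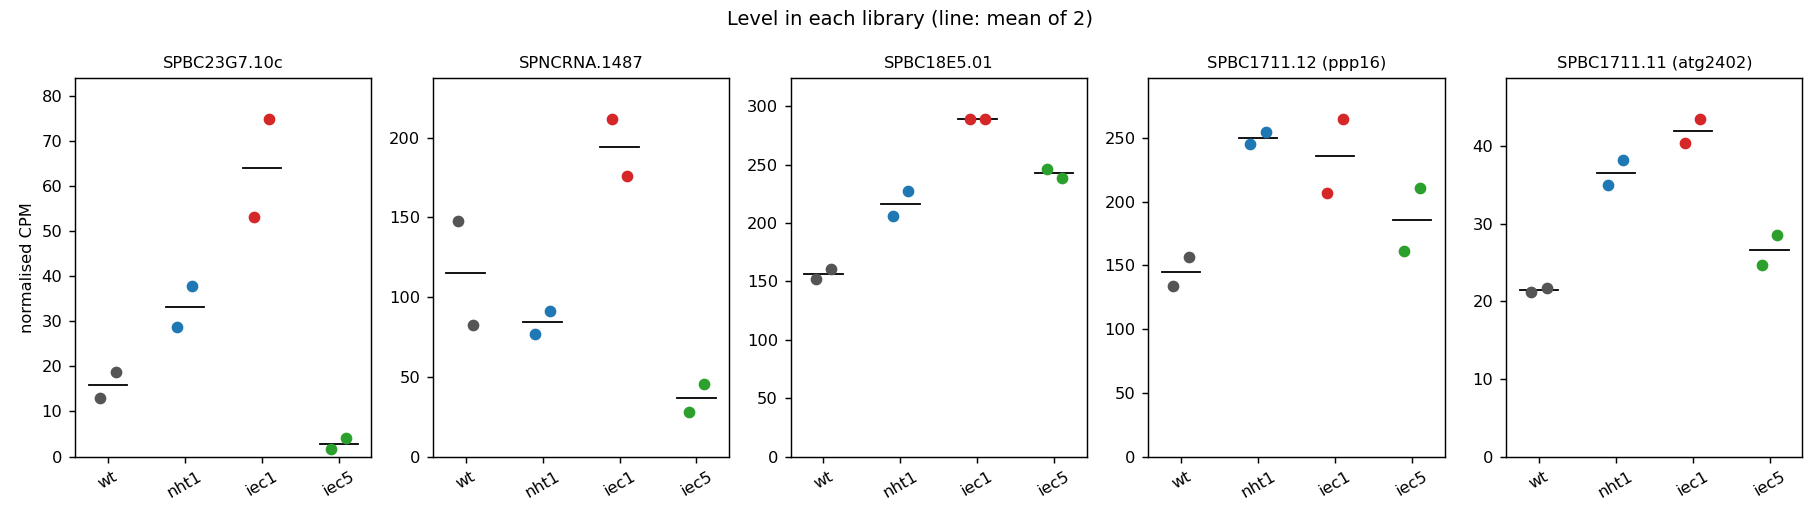
Normalised CPM in each of the 8 libraries (points) with the mean of each group of 2 (lines) for the 4 members that passed in any comparison and for SPNCRNA.1487; each vertical axis starts at 0. SPBC23G7.10c runs from 1.65 CPM in an iec5 library to 74.9 CPM in a library labelled iec1, and SPNCRNA.1487 is likewise lowest in iec5.

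Over the window as a whole, few members passed against wild type. In the nht1 libraries 1 of 46 tested members was called, or 2.17%, where 4.13% of all 4652 coding genes tested were. In the libraries labelled iec1 4 of 46 were called, 8.7% against 10.3% of all genes. In the iec5 libraries 2 of 46 were called, 4.35% against 0.408% of all genes, and these were SPBC23G7.10c and SPBC18E5.01. The first and second of these shares are near or below the background. The share in iec5 is not read as a trait of the window, since SPBC23G7.10c was in view when the window was set. Median log2 fold changes of the members were -0.01, 0.08 and -0.05 for nht1, iec1 and iec5, and those of all genes 0.02, 0.02 and 0.01. Left out in turn, wild-type replicate 1 or either nht1 library took the nht1 count to 0, while iec1 replicate 1 took it to 3 and each of iec1 replicate 2 and both iec5 libraries to 2. The iec1 count was 2 without wild-type replicate 1 or iec1 replicate 2. The iec5 count was 0 without either wild-type library or iec5 replicate 1, and 1 without iec5 replicate 2 or either nht1 library.

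**Figure D3:**
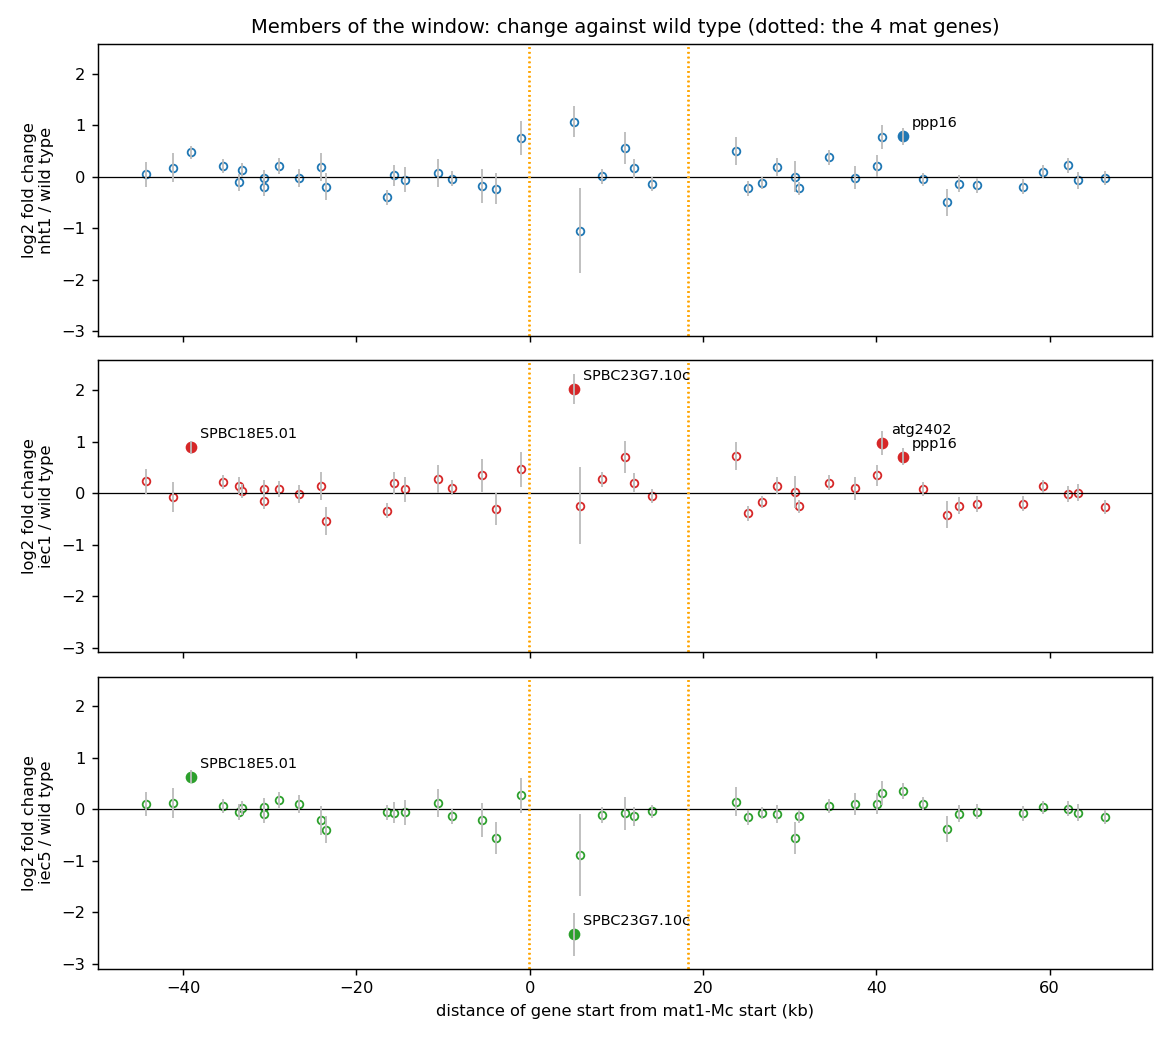
Log2 fold change against wild type of the 46 tested members for nht1, iec1 and iec5, with standard errors as bars, against the distance of each gene's start from that of mat1-Mc in kb. Filled points passed the edgeR test (adjusted p under 0.05) and dotted lines mark the mating-type genes; called members lie left of mat1, between mat1 and mat3, and right of mat3.

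SPBC18E5.01, annotated as a cycloisomerase 2 family protein, lies at 2075370 to 2077178 on the plus strand, left of mat1. It had 152 and 160 CPM in wild type, 206 and 227 in the nht1 libraries, 289 and 289 in those labelled iec1, and 246 and 238 in the iec5 libraries. Both libraries of each of the other 3 groups lay above both of wild type, and these comparisons share the same wild-type libraries. It rose by 0.89 in the libraries labelled iec1 (SE 0.13, edgeR adjusted p = 0.00022) and by 0.64 in the iec5 libraries (SE 0.13, edgeR adjusted p = 0.0375). In the nht1 libraries it was 0.47 above wild type (SE 0.13), at an edgeR adjusted p of 0.0503. Its last 193 bases overlap lcb1 of the opposite strand, for a subunit of serine palmitoyltransferase in sphingolipid synthesis, which stood 0.20, 0.21 and 0.06 above wild type with no call (edgeR adjusted p = 0.481, 0.382 and 0.993). The iec5 call ended when only its 2 groups were fitted (adjusted p = 0.0579). It also ended without any 1 of the libraries of wild type (0.225 and 0.45), nht1 (0.0668 and 0.0685) or iec5 (0.18 and 0.333). Of 13 alternatives run, the nht1 difference passed only with a replicate block (0.0221) and without iec1 replicate 1.

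Right of mat3, 2 neighbouring genes on the plus strand were called: ppp16 (SPBC1711.12, 2157543 to 2159733), annotated as an acylpeptide hydrolase, and atg2402 (SPBC1711.11, 2155079 to 2156931), an autophagy-associated gene 611 bases before it. Ppp16 had 134 and 157 CPM in wild type, 245 and 255 in the nht1 libraries, 207 and 265 in those labelled iec1, and 161 and 211 in the iec5 libraries. Each library labelled nht1, iec1 or iec5 lay above both wild-type libraries, which all of these comparisons share. It rose by 0.78 in the nht1 libraries (SE 0.16, edgeR adjusted p = 0.01) and by 0.70 in those labelled iec1 (SE 0.16, edgeR adjusted p = 0.00862), and was 0.36 above wild type in iec5 (SE 0.16, edgeR adjusted p = 0.981). Atg2402 had 21.1 and 21.7 CPM in wild type, 34.9 and 38.2 in nht1, 40.4 and 43.5 in the libraries labelled iec1, and 24.7 and 28.6 in iec5, again with no overlap with wild type. It rose by 0.97 in the libraries labelled iec1 (SE 0.23, edgeR adjusted p = 0.00974), and stood 0.77 above wild type in nht1 (SE 0.23, edgeR adjusted p = 0.0669) and 0.32 in iec5 (SE 0.23, edgeR adjusted p = 0.993). The calls of ppp16 ended without wild-type replicate 1 (adjusted p = 0.113 for nht1 and 0.0972 for iec1), either nht1 library (0.0691 and 0.0968) or iec1 replicate 2 (0.119). That of atg2402 ended without iec1 replicate 2 or any 1 library of wild type. Of 13 alternatives run, its nht1 difference passed only with a replicate block (0.0443).

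Among the 3 groups other than wild type, SPBC23G7.10c was again the member that passed: 1 of 46 was called for iec5 against nht1 (background 0.537% of all genes), and 1 of 46 for iec1 against iec5 (background 4.71%). Both counts thus rest on the gene that was in view when the window was set. For iec1 against nht1 edgeR called 0 of 46 members (background 0.15%) and so did DESeq2, with 2 at an unadjusted p under 0.05. When only those 2 groups were fitted, 1 member was called, SPBC23G7.10c (adjusted p = 0.0143). In the same comparison ppp16 stood at -0.08 (SE 0.16, edgeR adjusted p = 0.993) and atg2402 at 0.20 (SE 0.22, edgeR adjusted p = 0.961). SPBC18E5.01 stood at 0.42 for iec1 against nht1 (SE 0.13, edgeR adjusted p = 0.384) and at 0.25 for iec1 against iec5 (SE 0.13, edgeR adjusted p = 0.34).

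The genes nearest to the cassettes did not pass apart from SPBC23G7.10c. On the left of mat1, rga7 was 0.75 above wild type in nht1 (SE 0.33), 0.46 in iec1 (SE 0.35) and 0.28 in iec5 (SE 0.34; edgeR adjusted p = 0.258, 0.46 and 0.993). Its overlapping neighbour cms1, for a subunit of the early preribosome, stood at -0.23, -0.31 and -0.55. Mag2 stood at -1.04, -0.24 and -0.88 with standard errors of 0.75 to 0.83. Toward mat3, SPBC23G7.14 (0.16, 0.20 and -0.14) and the highly expressed rpp202 (-0.14, -0.06 and -0.04) had no call. On the right of mat3, emc3, for a subunit of a membrane protein insertase, had 25.7 and 26.0 CPM in wild type and 51.4 and 34.7 in the libraries labelled iec1, a difference of 0.72 that did not pass (SE 0.27, edgeR adjusted p = 0.109). The next gene, mtd1, for an enzyme of folate metabolism, was at -0.22, -0.39 and -0.15. It overlaps the end of emc3.

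By place, 20 tested members lay left of mat1, 6 between mat1 and mat3, and 20 right of mat3. Medians of the log2 fold change in the libraries labelled iec1 were 0.09, 0.23 and 0.01, with 1, 1 and 2 called (background 10.3%). In iec5 the medians were -0.01, -0.12 and -0.05. All 6 between mat1 and mat3 were below 0 there, as were 27 of the 46 tested members. Of these 6, rpt6, SPBC23G7.13c, SPBC23G7.14 and rpp202 were within 1 SE of 0, and mag2 stood at -0.88 (SE 0.80). In iec5 1 member was called on the left and 1 between mat1 and mat3, the latter SPBC23G7.10c (background 0.408%). In nht1 the medians were 0.00, 0.08 and -0.02, with the 1 call on the right (background 4.13%).

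Members with ordinary cell functions made up most of the rest, and none of them passed. The lowest log2 fold changes in nht1 besides that of mag2 were those of SPBC1711.15c (-0.49, SE 0.26), which shares bases with rec15, and mas2, for a subunit of the mitochondrial processing peptidase (-0.40, SE 0.15). Both were also below wild type in the libraries labelled iec1 (-0.42 and -0.34), where the uncharacterized SPBC18E5.09c was lowest (-0.54, SE 0.27). In iec5 tam9, for a mitochondrial ribosomal protein, stood at -0.55 (SE 0.31). Ribosomal protein genes rps21 (-0.20, -0.15 and -0.09) and rpl1001 (0.13, 0.05 and 0.03) stood near 0 in the order nht1, iec1 and iec5, as did his2 (-0.05, 0.08 and 0.11), krs1 (0.10, 0.13 and 0.04) and the kinetochore gene sim4 (-0.11, 0.15 and -0.05). Log2 fold changes within 0.5 of wild type were held by 84.8% of the members in nht1 (86.1% of all genes), 84.8% in the libraries labelled iec1 (81.3%) and 89.1% in iec5 (94.1%).

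**Figure D4:**
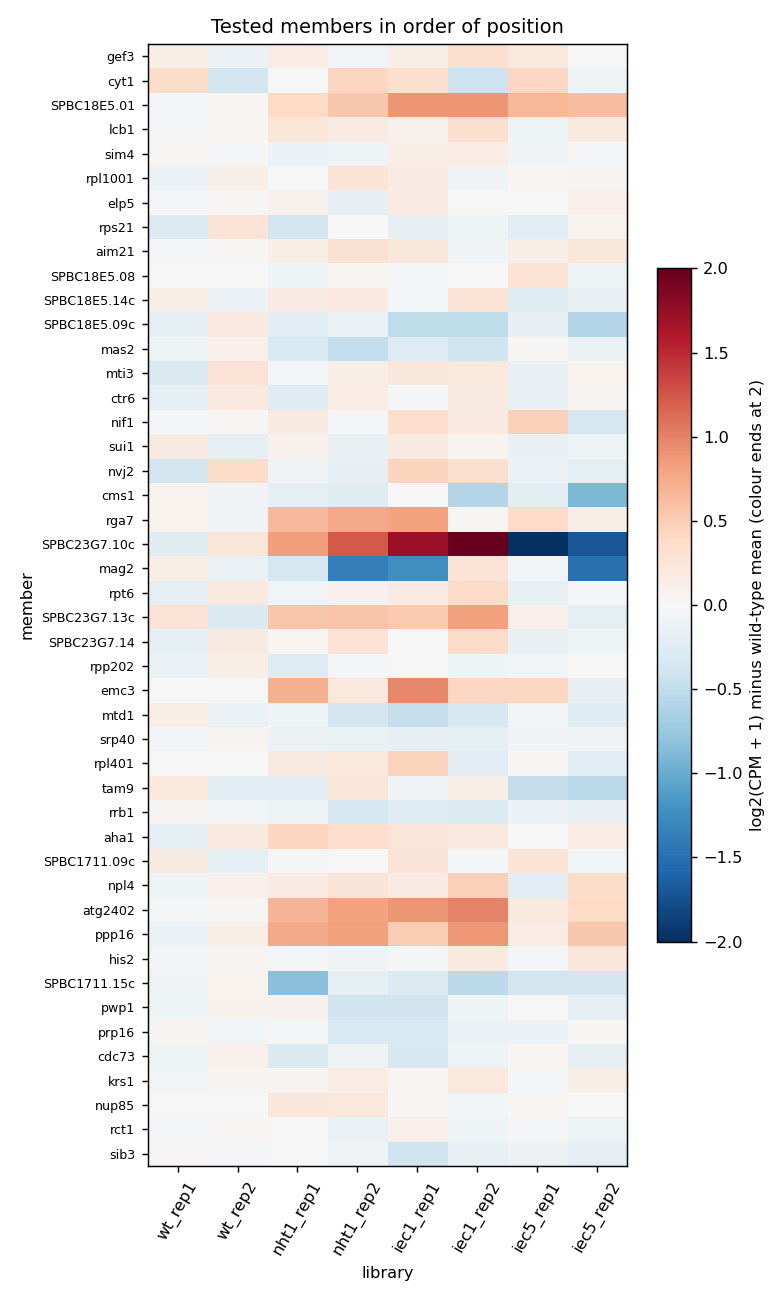
Each tested member (rows, in order of position) in each library (columns), as log2(CPM + 1) minus the mean of the wild-type libraries; colours end at 2 in both directions. SPBC23G7.10c stands out in both directions, SPBC18E5.01, atg2402 and ppp16 are above wild type in the libraries labelled nht1, iec1 and iec5, and most other rows stay near 0.

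Of 17 noncoding features in the window, 9 had enough counts to be tested. None of the 9 was called in nht1 by edgeR (background 6.57% of 1096 noncoding features), nor by DESeq2, with 1 at an unadjusted p under 0.05. Without wild-type replicate 2 the count was 1. In the libraries labelled iec1 1 of 9 was called (background 14.7%), and in iec5 1 of 9 (background 1.46%), both SPNCRNA.1487. SPNCRNA.1489, which overlaps emc3 on the opposite strand, had 37.8 and 43.4 CPM in wild type and 56.0 and 51.7 in nht1 (log2 fold change 0.41, SE 0.20, edgeR adjusted p = 0.276).

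Genes elsewhere that act on the mating-type region, respond to pheromone or mark a mating type were read from lists of 75 genes, of which 71 were tested. In nht1 3 were called (background 4.13% of all coding genes) and in the libraries labelled iec1 11 (background 10.3%). In iec5 edgeR and DESeq2 called 0 (background 0.408%), with 5 at an unadjusted p under 0.05. Median log2 fold changes of the 71 were 0.02, 0.07 and 0.05. Left out in turn, each wild-type library and nht1 replicate 1 took the nht1 count to 1, nht1 replicate 2 to 0, and each library labelled iec1 to 5. Of the wild-type libraries, leaving out replicate 1 gave 7 iec1 calls and replicate 2 gave 5; leaving out iec1 replicate 1 gave 7.

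Of 29 tested genes of silencing and its boundaries, 4 rose in the libraries labelled iec1 and 0 fell (background 10.3%, either direction), and DESeq2 called 5. Those that rose were tas3, a subunit of the RITS complex of RNA interference (0.70, SE 0.19), sfc6, a subunit of TFIIIC, which binds the boundary repeats (0.61, SE 0.15), dsh1, a partner of the RNA interference machinery (0.62, SE 0.17), and lid2, a JmjC-domain protein that acts on histone methylation (0.55, SE 0.15). Their edgeR adjusted p ran from 0.0142 to 0.0286. The RNA-directed RNA polymerase gene rdp1 stood at -0.43 there (SE 0.13, edgeR adjusted p = 0.0507) and at -0.44 in nht1 (SE 0.13, edgeR adjusted p = 0.0682), and is named after its values were seen. In nht1 edgeR called 0 of the 29 and DESeq2 1, with 6 at an unadjusted p under 0.05. Those with the smallest p were sfc6 (0.54, SE 0.15, edgeR adjusted p = 0.0528) and tas3 (0.65, SE 0.19, edgeR adjusted p = 0.0605). In iec5 edgeR and DESeq2 called 0, with 2 at an unadjusted p under 0.05, lid2 (0.49, edgeR adjusted p = 0.46) and sfc6 (0.36, edgeR adjusted p = 0.915). The iec1 calls of tas3 and sfc6 ended without wild-type replicate 2 (adjusted p = 0.0928 and 0.128) or either library labelled iec1 (0.0507 to 0.132), and that of tas3 also without wild-type replicate 1 (0.142). The call of dsh1 ended without wild-type replicate 2 (0.242) or iec1 replicate 1 (0.246). That of lid2 ended without either wild-type library (0.113 and 0.134) or iec1 replicate 2 (0.211), and when only the 2 groups were fitted (0.0567).

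Of 18 switching and recombination genes, sfr1, whose product works with Swi5, rose in nht1 (1.17, SE 0.29, edgeR adjusted p = 0.0288) and in the libraries labelled iec1 (1.61, SE 0.29, edgeR adjusted p = 0.00124). Its nht1 call ended without any 1 of the libraries of wild type and nht1 (adjusted p = 0.0625 to 0.284). In iec5 edgeR and DESeq2 called 0 of the 18, none had an unadjusted p under 0.05, and sfr1 stood at 0.53 (edgeR adjusted p = 0.993).

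In the libraries labelled iec1, 4 of 13 pheromone response genes were called, 2 in each direction (background 10.3%). Byr2, a kinase of the pheromone MAPK cascade, rose by 1.68 (SE 0.17, edgeR adjusted p = 4.62e-06) and the formin gene fus1 by 0.81 (SE 0.17, edgeR adjusted p = 0.00351). The next kinase, byr1, was at -0.71 (SE 0.14, edgeR adjusted p = 0.00289) and the adaptor gene ste4 at -1.46 (SE 0.28, edgeR adjusted p = 0.00224). Byr2 also rose in nht1, by 0.93 (SE 0.17, edgeR adjusted p = 0.00417), a call that ended without nht1 replicate 2 (0.0736). That of fus1 ended without wild-type replicate 1 (0.0619) or iec1 replicate 2 (0.0507). In iec5 edgeR and DESeq2 called 0 of the 13, with 2 at an unadjusted p under 0.05, fus1 (0.53, edgeR adjusted p = 0.46) and ste4 (-0.63, edgeR adjusted p = 0.889). Byr2, fus1, ste4, dsh1, rdp1, sfr1, mam1 and sxa2 overlap another coding gene.

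Markers of both mating types were read in each library, and none of the 11 was at 0 in any. The summed level of 7 M cell markers was 187 to 188 CPM in wild type, 219 to 233 in nht1, 246 to 253 in the libraries labelled iec1 and 191 to 213 in iec5. That of 4 P cell markers was 238 to 239, 254 to 312, 239 to 329 and 242 to 270 CPM, of which the protease gene sxa1 alone held 202 to 291. Of the M markers, the pheromone exporter gene mam1 (0.57, SE 0.15, edgeR adjusted p = 0.0222) and the carboxypeptidase gene sxa2 (1.08, SE 0.25, edgeR adjusted p = 0.00862) rose in the libraries labelled iec1 (2 of 7 called, background 10.3%). The M pheromone genes mfm1 (-1.28, SE 0.61, edgeR adjusted p = 0.207) and mfm2 (-1.31, SE 0.58, edgeR adjusted p = 0.172) stood below wild type there without passing. Mfm2 was also at -1.64 in nht1 (SE 0.60, edgeR adjusted p = 0.153). Another M pheromone gene, mfm3, went the other way without passing. It stood at 0.95 in the libraries labelled iec1 (SE 0.57, edgeR adjusted p = 0.34) and at 0.38 in nht1 (SE 0.60, edgeR adjusted p = 0.808). Of the 7 M markers mam1 had the highest level in each library, at 88.7 to 142 CPM. The call of mam1 ended without any 1 of the libraries of these 2 groups (0.0554 to 0.138), and that of sxa2 without iec1 replicate 2 or any 1 library of wild type (0.0569 to 0.0726).

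The M pheromone gene mfm1 had 7.25 and 4.28 CPM in wild type, and 1.26 and 0.364 CPM in nht1. In those nht1 libraries 3 counts equal 0.944 and 1.09 CPM, so both values rest on few counts. Its log2 fold change was -2.72 (SE 0.73, edgeR adjusted p = 0.044). This call ended with DESeq2 (0.0795) and without any 1 of the libraries of wild type and nht1 (0.0941 to 0.328). The log2 fold change was -3.84 without nht1 replicate 1 and -2.16 without nht1 replicate 2. In iec5 edgeR and DESeq2 called 0 of the 7 M markers, with 1 at an unadjusted p under 0.05, mfm1 (-1.30, SE 0.59, edgeR adjusted p = 0.981). Both tools called 0 of the 4 P markers in each of the 3 comparisons with wild type, and none had an unadjusted p under 0.05. The mating type of the strains is not stated in the labels, and the part of such differences in the results above was not tested.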

How the data were processed

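Counts per coding and noncoding feature were deposited for 8 libraries. Per the submitters' processing notes the authors used HISAT2 2.1.0, featureCounts 1.6.1, DESeq2 1.28.0 and build ASM294v2; its strand and multi-mapping settings: not given in the sources used here. Members and gene lists were chosen with earlier results of these data known. Library totals differed by sequencing depth, and 3 counts equal 0.875 to 1.38 CPM.

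The test was edgeR's quasi-likelihood F test (version 4.0.16, R 4.3.3) on the counts, with TMM normalization, the default low-count filter, 1 fit of all 8 libraries and Benjamini-Hochberg adjustment over 4652 coding genes, called under 0.05. The biological coefficient of variation was 11.9%. Noncoding features (1096 tested, 13.1%) took the library sizes and factors of the coding table. Standard errors were taken as the size of the log2 fold change divided by the root of F. No set test was run. Replicate libraries differed beyond counting error (chi-square per degree of freedom 7.07 to 9.56).

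Named are members called in any comparison, the mating-type genes with 2 neighbours on each side, the 3 largest rises and falls against wild type, the extremes of level, untested members, and list or noncoding features called or nearest. Some other members were named for their function or level after their values were seen.

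All 53 members matched the RefSeq annotation of build ASM294v3, used for names, products and sequences; printed coordinates come from the files. Motifs were searched in the 250 bases before each RefSeq gene start, on both strands. The test was run on simulated data with known changes, and alternatives included DESeq2 1.42.0. Figures were drawn with matplotlib 3.10.9 in Python 3.11.15.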

Additional observations from a re-analysis of the deposited data

How the results depend on the processing

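Counts of called members against wild type were 1 (nht1), 4 (iec1) and 2 (iec5). For nht1 the count was 2 with DESeq2, 2 in the fit of 2 groups only, 4 with the replicate block and 0 when the log2 fold change also had to reach 1 in size. For iec1 it was 1 with that fold minimum. For iec5 it was 1 in the fit of 2 groups only, 1 in a narrower window, 1 with the fold minimum and 1 without members that overlap another coding feature. For iec1 against nht1 it was 1, not 0, in the fit of 2 groups only. With 1 library left out, counts ran from 0 to 3 (nht1), 2 to 4 (iec1), 0 to 2 (iec5), 0 to 0 (iec1 against nht1) and 1 to 1 (both comparisons with iec5). For noncoding features they ran from 0 to 1 (nht1), 0 to 1 (iec1) and 1 to 1 (iec5), and for list genes from 0 to 5, 5 to 12 and 0 to 0. The replicate block gave 2 noncoding calls for iec1 and 9 list calls, not 3, for nht1. The cause of these moves was not tested, except that a fold minimum or a smaller window can only lower a count. RLE normalization and no low-count filter changed no count by over 1.5 times. Nor did, for members in nht1 and iec5, a fit without the libraries labelled iec1 (chosen after the data were seen). None of the 31 results for named genes that were refitted changed sign. These were results already called or those of the 4 called members, refitted on mostly the same libraries, so a kept sign says little. By the labels, same-numbered replicates share only a number. Deviations of same-numbered libraries correlated at -0.0694 to 0.274 over the pairs of groups, and whether such libraries share a batch was not tested. Low counts limit mag2, with at most 15 in a library, and edc3, with at most 6, which shares 92.3% of its length with SPBC18E5.10. Over all coding genes, calls against wild type with 1 library left out ran from 51 to 243 for nht1 (192 in the full fit), 234 to 484 for iec1 (477) and 2 to 22 for iec5 (19). The replicate block gave 356, 695 and 37. For iec1 against nht1, with 7 calls, DESeq2 gave 21, the fit of 2 groups 32, the block 25 and libraries left out 0 to 11. For iec5 against nht1, with 25, the block gave 53 and libraries left out 4 to 34. For iec1 against iec5, with 219, the block gave 329 and libraries left out 86 to 210.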

Other observations

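The deposited coding table also lists 4 features on a separate sequence named for the mating-type region. SPMTR.01 had 5 to 20 counts per library and 71 in all, and SPMTR.02 had 1 to 6 and 27 in all. SPMTR.03 and SPMTR.04, whose lengths of 129 and 546 bases equal those of mat3-Mi and mat3-Mc in the table, were at 0 in each library. The annotation used here gives no name to these 4 features.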
